A study of Mus musculus with 31 samples.

Results

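The miR-23a/27a/24-2 and miR-23b/27b/24-1 clusters are a pair of related microRNA gene groups, and their products were followed here in small RNA of C57Bl/6 J mice, taken from the right hippocampus. The members are the 10 rows of the deposited count tables that belong to both clusters, out of 1966 mature microRNAs in all. They are 5 guide arms (mmu-miR-23a-3p, mmu-miR-23b-3p, mmu-miR-27a-3p, mmu-miR-27b-3p and mmu-miR-24-3p) and 5 passenger arms (mmu-miR-23a-5p, mmu-miR-23b-5p, mmu-miR-27b-5p, mmu-miR-24-1-5p and mmu-miR-24-2-5p), written below without the mouse prefix mmu and taken by name, with no measured value used in the choice. The remaining arm of the clusters, miR-27a-5p, is not a member.

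The genotypes were wild type (WT) and knockout (KO) of 5-HTT, the serotonin transporter, which takes serotonin back up into neurons. Mice of each genotype were given water, exercise for 4 weeks, or for as long corticosterone, the glucocorticoid that rodents release under stress. The 31 libraries were 7 WT-water, 5 WT-exercise, 6 WT-corticosterone, 6 KO-water, 5 KO-exercise and 2 KO-corticosterone, labelled as biological replicates. The sources used here do not give age, sex, dose or the kind of exercise. Only microRNAs were counted, so the deletion could not be checked in the transporter's own mRNA. Whole hippocampal tissue was used, so fewer cells of a type and less of a microRNA per cell cannot be told apart.

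Libraries held 1011285 to 4052174 counts assigned to microRNAs, and the members together made up 2.47% ± 0.115 (SD, n = 7) of the counts in WT-water. Their share was 2.44% ± 0.095 (SD, n = 6) in KO-water and 2.02% to 2.13% as group means in the 4 treated groups. The KO-water group was not uniform. The deposited table that pairs KO-water with WT-water holds 3 KO-water libraries, replicates 3, 4 and 6, named here the table KO-water libraries. They stood apart from the other KO-water libraries, replicates 1, 2 and 5: edgeR's quasi-likelihood test called 54.5% of the 532 microRNAs tested between these subsets (adjusted p below 0.05, Benjamini-Hochberg over all microRNAs tested). Results that rest on KO-water are therefore given with each of these subsets. The neuron-enriched microRNAs that define the tissue were abundant in every group: the summed level of miR-124-3p, miR-9-5p, miR-128-3p, miR-138-5p, miR-137-3p and miR-218-5p ran from 347892 to 455337 CPM, counts scaled to library size, and no member of any cell type list was at 0 in any library.

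A microRNA gene is transcribed as a hairpin, and the enzymes Drosha and Dicer cut it into a short duplex. One strand, the guide, is usually kept in an Argonaute protein and pairs with target mRNAs through its seed, bases 2 to 8. The other strand, the passenger, is mostly degraded. In each cluster 3 hairpins lie in a row and are thought to be cut from 1 primary transcript. The clusters are known from the vessel wall and from immune cells, miR-23b and miR-27b are abundant in brain, and miR-23a, miR-24 and miR-27a have been reported as enriched in astrocytes.

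The miR-23a cluster lies on mouse chromosome 8 (GRCm38), plus strand, with Mir23a at 84208518 to 84208592, Mir27a at 84208672 to 84208758 and Mir24-2 at 84208815 to 84208921, a span of 404 bases. Mir23a and Mir27a overlap no other gene in the GENCODE M21 annotation. The end of Mir24-2 overlaps an exon of the long non-coding RNA Gm26532, and Mir3074-2 lies on the opposite strand. The miR-23b cluster lies on chromosome 13, plus strand, with Mir23b at 63300484 to 63300557, Mir27b at 63300712 to 63300784 and Mir24-1 at 63301208 to 63301275, a span of 792 bases. These hairpins lie within the protein-coding gene 2010111I01Rik, Mir23b in an intron and the others in an exon of at least 1 annotated transcript. They are also opposite an intron of Fancc, and Mir3074-1 lies opposite Mir24-1. The 2 microRNAs counted from the opposite strand, miR-3074-5p and miR-3074-1-3p, had 0 to 14 counts per library.

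The mature sequences show which members can share targets and which reads are hard to tell apart. They are from RefSeq on GRCm38.p6, written 5′ to 3′ with the seed in capitals, and 9 of the 10 members matched. miR-23b-3p is named only.
miR-23a-3p: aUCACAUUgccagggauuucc
miR-27a-3p: uUCACAGUggcuaaguuccgc
miR-27b-3p: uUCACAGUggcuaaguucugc
miR-24-3p: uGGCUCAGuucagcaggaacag
miR-23a-5p: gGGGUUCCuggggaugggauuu
miR-23b-5p: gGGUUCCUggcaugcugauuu
miR-27b-5p: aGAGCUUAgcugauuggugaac
miR-24-1-5p: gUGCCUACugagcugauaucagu
miR-24-2-5p: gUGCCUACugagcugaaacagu

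The guides miR-27a-3p and miR-27b-3p share their seed and differ by 1 base, C19U with positions counted from 1 at the 5′ end of miR-27a-3p. A read that ends before base 19 fits both. miR-24-3p is the same 22 bases at both loci, so its count joins Mir24-1 and Mir24-2, and only the passenger arms miR-24-1-5p and miR-24-2-5p tell those hairpins apart. Both of these passenger arms share the seed UGCCUAC and their first 16 bases. miR-23a-5p and miR-23b-5p have different seeds, because an extra g in miR-23a-5p shifts the frame after the first 3 shared bases. Among all rows of the tables with a matched sequence, 4 others carried a member's seed: miR-6413, miR-6410, miR-6369 and miR-5124b share that of miR-24-3p, and all had 0 counts in the 31 libraries. The stretch from base 3 to base 9 of the miR-27 guides, CACAGUG, is also the seed of miR-128-3p, a neuron-enriched microRNA. The sources used here do not give how reads that fit 2 rows were counted, so the split between miR-27a-3p and miR-27b-3p is uncertain. Without a matched sequence of miR-23b-3p, how well its reads can be told from those of miR-23a-3p was not checked. The split between these paralogs is therefore uncertain too.

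The guide arms were among the most abundant microRNAs of the hippocampus and the passenger arms were rare. These levels are CPM with scaling factors set over all 31 libraries. They count molecules of 21 to 23 bases and are not divided by length. miR-23b-3p had a mean of 7405 CPM and ranked 26 of 1966, and miR-24-3p followed with 7321 CPM at rank 28. miR-23a-3p had 3870 CPM at rank 44, miR-27b-3p 2353 CPM at rank 57 and miR-27a-3p 1057 CPM at rank 87. In all 31 libraries miR-23b-3p and miR-24-3p exceeded miR-23a-3p, which exceeded miR-27b-3p, which exceeded miR-27a-3p. The top place did not hold in this way: miR-23b-3p was above miR-24-3p in 16 of 31 libraries, in 3 of 3 table KO-water libraries and 0 of 3 other KO-water libraries. Among the passenger arms miR-24-2-5p had a mean of 53.0 CPM, miR-24-1-5p 39.2 CPM, miR-23b-5p 18.8 CPM, miR-27b-5p 7.17 CPM and miR-23a-5p 1.33 CPM. Within a library the guide total was 118 to 257 times the passenger total. The b-cluster guides thus outnumbered their a-cluster paralogs, while of the miR-24 passengers the a-cluster arm miR-24-2-5p was the higher in 27 of 31 libraries.

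**Figure D1:**
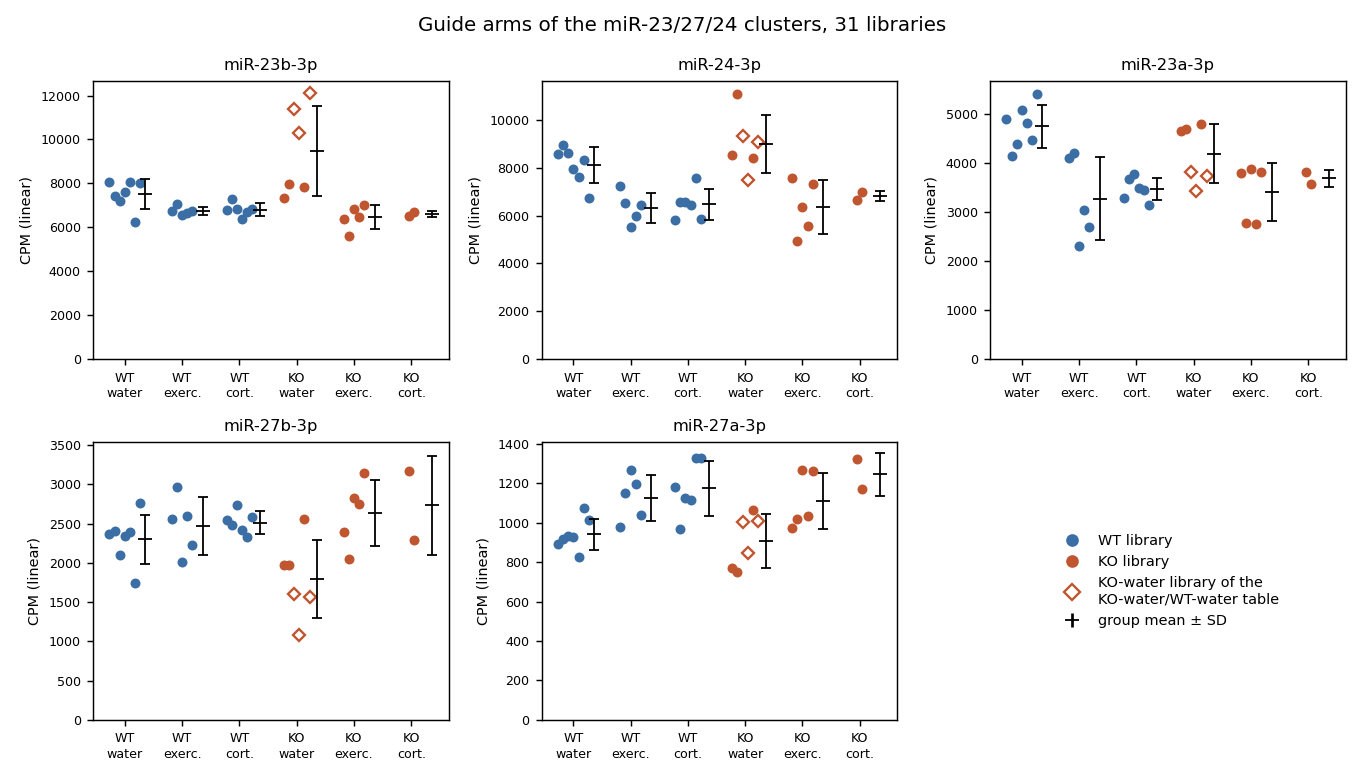
CPM of the 5 guide arms (y axes, linear from 0, scaling factors set over 31 libraries) in the 6 groups (x axes), 1 point per library, with open diamonds for the 3 table KO-water libraries and bars for the group mean ± SD. The table KO-water libraries hold the highest miR-23b-3p of all libraries, and the miR-23a-3p of WT-corticosterone lies below that of WT-water.

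By group mean on this scale, miR-23a-3p ran from 4747 ± 439 CPM in WT-water (SD, n = 7) through 4190 ± 597 in KO-water (n = 6), 3690 ± 176 in KO-corticosterone (n = 2), 3469 ± 232 in WT-corticosterone (n = 6) and 3405 ± 587 in KO-exercise (n = 5) to 3273 ± 848 in WT-exercise (n = 5). miR-24-3p also had the water groups at the top, with 9004 ± 1218 in KO-water and 8120 ± 761 in WT-water, and 6346 to 6837 CPM as means of the 4 treated groups. miR-27a-3p had the opposite order, with 907 ± 136 in KO-water and 941 ± 80.5 in WT-water at the bottom and 1112 to 1246 CPM in the treated groups. For miR-27b-3p the order was alike, from 1793 ± 500 in KO-water and 2302 ± 312 in WT-water to 2732 ± 628 in KO-corticosterone. miR-23b-3p ran from 6456 ± 541 in KO-exercise to 9478 ± 2036 in KO-water. For every member and every pair of neighbouring groups in these orders, the ranges of the libraries overlapped.

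The first comparison asks how KO-water differs from WT-water. On the 3 table KO-water libraries, miR-23b-3p was higher and its own passenger arm and its cluster mates miR-27b-3p and miR-27b-5p were lower than in WT-water. Of the 9 members tested, 7 were called, 3 higher and 4 lower, where 60.9% of all 581 microRNAs tested were called (33.0% higher and 27.9% lower). With all 6 KO-water libraries 0 members were called by edgeR fitted on the water groups alone, and with the other KO-water libraries alone 0 were called. A joint edgeR fit of the 6 groups with all KO-water libraries called 1, miR-23b-3p (0.35, adjusted p = 0.0398). For these alternative fits the share of all microRNAs called was not kept, so their counts cannot be set against a background. The values that follow are those of the table KO-water libraries. For each comparison, CPM values use scaling factors set within the libraries compared.

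miR-23b-3p, the most abundant guide, stood at 11735, 12804 and 13311 CPM in the table KO-water libraries. Its 7 WT-water libraries ran from 6258 through a median of 7390 to 7833 CPM, so the groups did not overlap. The log2 fold change was 0.79 ± 0.10 (SE; edgeR adjusted p = 9.46e-06), and 53.7% of all microRNAs tested had groups that did not overlap. Against WT-water it was 0.38 (edgeR adjusted p = 0.117) with all KO-water libraries and 0.02 (edgeR adjusted p = 0.976) with the other KO-water libraries. miR-24-3p stood at 9648, 9335 and 9990 CPM against 6556 to 8793 CPM, without overlap on this scale. With scaling factors set over all 31 libraries the groups overlapped, at 7495 to 9348 against 6727 to 8972 CPM. The log2 fold change of miR-24-3p was 0.29 ± 0.10 (edgeR adjusted p = 0.0228). That call was lost when any 1 of 8 of the 10 libraries was left out, all but WT-water replicates 1 and 2, with values of 0.12 to 0.21, and without scaling factors the value was -0.03. Without scaling factors the median of all microRNAs tested moved from 0.03 to -0.30, so miR-24-3p lay above that median on both scales.

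miR-27b-3p, which shares a primary transcript with miR-23b-3p by position, went the other way. It had 1650, 1347 and 1729 CPM in the table KO-water libraries against 1759 to 2691 CPM in WT-water (median 2276), with no overlap and a log2 fold change of -0.50 ± 0.13 (edgeR adjusted p = 0.00439). The a-cluster guides were not called: miR-23a-3p had a log2 fold change of -0.17 ± 0.10 (edgeR adjusted p = 0.165) and miR-27a-3p 0.22 (edgeR adjusted p = 0.0705). The value of miR-27a-3p turned to -0.10 without scaling factors. That of miR-23a-3p passed the threshold without scaling factors (-0.49), with DESeq2 or its size factors (-0.25), at a mean of at least 10 CPM (-0.29) and when WT-water replicate 3, 5 or 6 was left out (-0.32, -0.30 and -0.31).

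Of the passenger arms, 3 were lower and 1 higher. miR-23b-5p had 12.4, 6.61 and 11.1 CPM in the table KO-water libraries against 15.2 to 80.6 CPM in WT-water (mean 33.7 ± 21.9, SD, n = 7), without overlap. The log2 fold change was -1.67 ± 0.52 (edgeR adjusted p = 0.0155). miR-27b-5p had 3.37, 5.67 and 3.69 CPM against 6.40 to 13.3 CPM, a log2 fold change of -1.17 ± 0.34 (edgeR adjusted p = 0.00824). The miR-24 passenger arms parted: miR-24-1-5p of the b cluster fell by 0.64 ± 0.17 on the log2 scale (edgeR adjusted p = 0.00602; 29.2, 24.6 and 36.3 against 39.7 to 56.8 CPM), while miR-24-2-5p of the a cluster rose by 0.47 ± 0.19 (edgeR adjusted p = 0.0448). The groups of miR-24-2-5p overlapped, at 64.0, 82.2 and 69.0 against 34.2 to 68.3 CPM, and leaving out any 1 of the same 8 libraries ended its call (0.25 to 0.41). Within the libraries whose sample code starts with G, a letter with no stated meaning, 5 members were called: miR-23b-3p (0.63), miR-23b-5p (-1.46), miR-27b-3p (-0.67), miR-27b-5p (-1.10) and miR-24-1-5p (-0.86). The share of all microRNAs called was not kept for this fit. The letter H holds 1 table KO-water library, so it gave no value.

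miR-23a-5p was too rare for the test in any comparison. It had 47 counts over the 7 WT-water libraries and 0 over the 3 table KO-water libraries, which at a limit of 3 counts over the group makes WT-water at least 4.38-fold higher. The exact two-sided permutation test over libraries gave p = 0.0167, the smallest possible here, and 0.15 after Benjamini-Hochberg adjustment over 9 comparisons. The other KO-water libraries had 9 counts, WT-exercise 5, WT-corticosterone 16, KO-exercise 11 and KO-corticosterone 3. These limits cover counting error only, since the reads carry no molecular identifiers that the sources used here name.

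**Figure D2:**
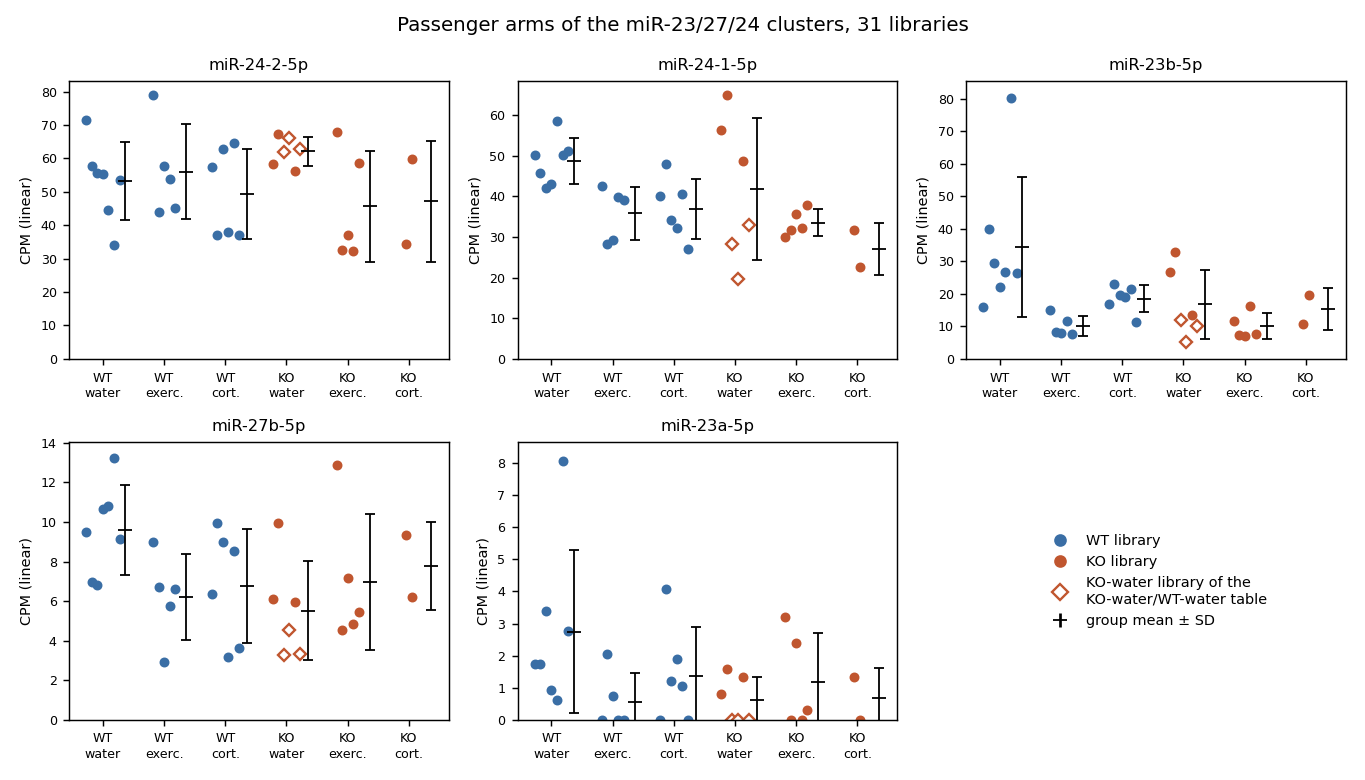
CPM of the 5 passenger arms (y axes, linear from 0, scaling factors set over 31 libraries) by group (x axes), 1 point per library, with open diamonds for the table KO-water libraries and bars for the group mean ± SD. WT-water replicate 6 has the highest miR-23b-5p (80.1 CPM) and the highest miR-23a-5p (8.07 CPM) of all libraries, and miR-23a-5p is at 0 in the table KO-water libraries.

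Some of the members called against WT-water were also called between the subsets of the KO-water group, while miR-24-3p, miR-24-2-5p and miR-27b-5p were not. Both comparisons use the same table KO-water libraries, so they are not independent. Of 9 members tested, 4 were called between the table and the other KO-water libraries, 1 higher and 3 lower, where 54.5% of all microRNAs were called (28.9% higher and 25.6% lower). miR-23b-3p was at 10665, 11243 and 11694 CPM in the former and 6703, 7197 and 7519 CPM in the latter, a log2 difference of 0.65 ± 0.13 (edgeR adjusted p = 0.00125). miR-24-1-5p differed by -0.95 ± 0.23 (edgeR adjusted p = 0.00392), miR-23b-5p by -1.28 ± 0.39 (edgeR adjusted p = 0.0147) and miR-27b-3p by -0.53 ± 0.17 (edgeR adjusted p = 0.0231). Leaving out KO-water replicate 4 or 1 ended the call of miR-23b-5p (-1.02 and -1.19), and leaving out replicate 4, 5 or 6 ended that of miR-27b-3p (-0.34, -0.32 and -0.55). Without replicate 4, 2 members were called in all, with no share over all microRNAs kept for that fit. All 6 libraries share genotype, strain, tissue and treatment by their labels, and what else set them apart was not tested.

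Other cell type microRNAs moved along with the members in the table KO-water libraries, and their part in the result was not tested. The summed level of the oligodendrocyte microRNAs miR-219a-5p and miR-338-3p was 754 to 1261 CPM in these libraries, 4893 to 6077 CPM in WT-water and 3872 to 5296 CPM in the other KO-water libraries. Both were lower than in WT-water, with log2 fold changes of -4.10 for miR-219a-5p and -1.92 for miR-338-3p. The vessel microRNAs (miR-126a-3p, miR-126a-5p, miR-143-3p and miR-145a-5p) summed to 23372 to 26489 CPM against 12838 to 18486 CPM in WT-water and 11284 to 15704 CPM in the other KO-water libraries, and 2 of 4 rose (miR-126a-3p by 1.39 and miR-126a-5p by 1.11). The list reported as enriched in astrocytes summed to 25831 to 32548 CPM in the table KO-water libraries, 55755 to 65488 CPM in the other KO-water libraries and 12090 to 62188 CPM in WT-water (median 57873). Against WT-water 2 of its 5 members rose (miR-222-3p by 0.75 and miR-31-5p by 0.65) and 0 fell, with -0.82 for miR-29a-3p, which was not called. Between the KO-water subsets the same 2 were called higher and miR-29a-3p lower (-1.19). Of the 6 neuron-enriched microRNAs 3 rose and 3 fell. Of 3 immune cell microRNAs, miR-223-3p rose (1.99) and miR-146a-5p fell (-1.36). Among red blood cell microRNAs 1 of 3 was higher and 2 were lower, and among those of choroid plexus 1 of 3 was higher and 1 lower. The table KO-water libraries were therefore the lowest in oligodendrocyte microRNAs among the water libraries, and the highest in vessel microRNAs.

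The second comparison asks what exercise does in WT mice. miR-23a-3p, a guide of the a cluster, and miR-23b-5p, the passenger of the b cluster, were lower in WT-exercise than in WT-water, and the remaining 7 members tested were not called. The 2 calls, both lower, stand against 32.5% of the 553 microRNAs tested called (19.9% higher and 12.7% lower). The members' median log2 fold change was -0.30, and that of all microRNAs tested was 0.04. DESeq2 called 5 members, with no share over all microRNAs kept for that fit.

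miR-23b-5p had 15.6, 8.38, 8.84, 11.8 and 8.14 CPM in WT-exercise and 15.6 to 83.9 CPM in WT-water (median 26.9), so the groups met at their edge. Its log2 fold change was -1.70 ± 0.40 (edgeR adjusted p = 0.00697), and the call held when each library was left out in turn (-1.93 to -1.33). miR-23a-3p had 4275, 4281, 2533, 3141 and 2880 CPM in WT-exercise, where replicates 1 and 2 lay within the WT-water range of 4234 to 5472 CPM and replicates 3, 4 and 5 below it. Its log2 fold change was -0.48 ± 0.15 (edgeR adjusted p = 0.029). The call was lost without WT-exercise replicate 3, 4 or 5 (-0.38, -0.45 and -0.42) or WT-water replicate 4, 5 or 7 (-0.44, -0.44 and -0.40). Without WT-exercise replicate 1, 5 members were called, with no share over all microRNAs kept for that fit. Within the code letter G the values were -0.30 for miR-23a-3p (edgeR adjusted p = 0.415) and -1.24 for miR-23b-5p (edgeR adjusted p = 0.143), and within H they were -0.74 and -2.41 (edgeR adjusted p = 0.0252 for both). Only 2 libraries of each group carry H, among them WT-water replicate 6, which had the highest miR-23b-5p of all libraries.

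The other members were not called. miR-27a-3p had a log2 fold change of 0.32 and miR-27b-3p 0.16, while miR-24-3p had -0.30 and miR-23b-3p -0.09. miR-27a-3p passed the threshold without WT-exercise replicate 2 or WT-water replicate 6 or 7 (0.33, 0.37 and 0.39). The most abundant guide, miR-23b-3p, had 6827 to 7219 CPM in WT-exercise and 6513 to 8126 CPM in WT-water. For miR-23a-5p, with 5 counts against 47, the exact two-sided permutation test gave p = 0.0354 and 0.159 after adjustment over 9 comparisons.

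The third comparison is that of corticosterone in WT mice, which shares its WT-water libraries with the exercise comparison. miR-23a-3p and miR-23b-5p were lower and miR-27a-3p was higher than in WT-water, so members of the a cluster moved in opposite directions. The 3 calls, 1 higher and 2 lower, stand against 41.9% of the 547 microRNAs tested called (24.9% higher and 17.0% lower). The members' median log2 fold change was -0.28, and that of all microRNAs tested was 0.06. DESeq2 called 5 members, and leaving out WT-water replicate 4 or WT-corticosterone replicate 2 also gave 5. No share over all microRNAs was kept for those fits.

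miR-23a-3p had 3339, 3490, 3474, 3521, 3700 and 3936 CPM in the 6 WT-corticosterone libraries, all below the WT-water range of 4130 to 5346 CPM. The log2 fold change was -0.40 ± 0.10 (edgeR adjusted p = 0.00531), the call held when each library was left out in turn (-0.51 to -0.37), and 14.1% of all microRNAs tested had groups that did not overlap. miR-27a-3p had 977.8 to 1486 CPM (median 1187) against 825.6 to 1103 CPM (median 916), with 5 of 6 WT-corticosterone libraries above all WT-water libraries. Its log2 fold change was 0.37 ± 0.11 (edgeR adjusted p = 0.0171). Without WT-water replicate 5 or WT-corticosterone replicate 6 the call was lost (0.27 and 0.28), as it was without scaling factors (0.24), where the median of all microRNAs tested moved from 0.06 to -0.07. miR-23b-5p had 12.6 to 23.3 CPM against 16.5 to 82.2 CPM, and its log2 fold change of -0.83 ± 0.32 (edgeR adjusted p = 0.047) was the least stable. Leaving out any 1 of 9 libraries ended that call (-0.54 to -0.93), and the value was -0.54 without WT-water replicate 6, the library with the highest level. Those 9 were all but WT-water replicates 1, 4 and 5 and WT-corticosterone replicate 2.

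Within the code letter G, miR-23a-3p had -0.42 (edgeR adjusted p = 0.0146), miR-27a-3p 0.32 (edgeR adjusted p = 0.0419) and miR-23b-5p -0.43 (edgeR adjusted p = 0.189). The letter H holds 1 WT-corticosterone library and gave no value. miR-24-3p had a log2 fold change of -0.28 and was not called, but it passed the threshold with DESeq2 or its size factors (-0.33), without scaling factors (-0.40) and with 10 of the 13 single libraries left out (-0.30 to -0.37). miR-24-1-5p likewise missed the threshold (-0.35) and passed it with DESeq2 or its size factors (-0.40), without scaling factors (-0.47) and without WT-water replicate 3 or 4 or WT-corticosterone replicate 2 (-0.44, -0.43 and -0.50). miR-23b-3p had -0.09, with 6402 to 7670 CPM against 6383 to 8391 CPM.

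Between WT-exercise and WT-corticosterone 0 of 9 members were called by edgeR, where 0% of all 521 were called, and DESeq2 also called 0 members. At an unadjusted p below 0.05, 1 member and 20 of all microRNAs passed. The member was miR-23b-5p, at 7.69 to 15.2 CPM with exercise and 10.9 to 23.2 CPM with corticosterone, a log2 difference of -0.84 ± 0.26 (edgeR adjusted p = 0.74). These counts do not show that the treatments act alike.

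In both WT treatments markers of other cells moved with the members, and their part was not tested. The oligodendrocyte sum was 963 to 5878 CPM in WT-exercise (median 1381) and 1153 to 5205 CPM in WT-corticosterone (median 1835), against 4893 to 6077 CPM in WT-water. miR-338-3p fell by 1.13 on the log2 scale in each, while miR-219a-5p was not called (-0.54 and -1.09). Both miR-126a arms of the 4 vessel microRNAs rose, by 0.53 and 0.54 with exercise and by 0.56 and 0.65 with corticosterone. Of the 3 immune cell microRNAs, miR-142a-3p and miR-223-3p rose in each. Of the red blood cell microRNAs, miR-451a fell in each (-1.03 and -1.24) and miR-486a-5p rose with corticosterone (0.59), and of the choroid plexus list miR-449a-5p rose in each (1.28 and 1.17). The astrocyte list summed to 24448 to 62733 CPM in WT-exercise (median 29803) and 24923 to 47725 CPM in WT-corticosterone (median 28872), and 0 of its 5 members were called by edgeR in either treatment. Of the neuron-enriched list, miR-128-3p, whose seed overlaps that of miR-27, fell with exercise (-0.70) and with corticosterone (-0.59), while miR-218-5p rose (1.17 and 1.26) and miR-138-5p rose with corticosterone (0.52).

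**Figure D3:**
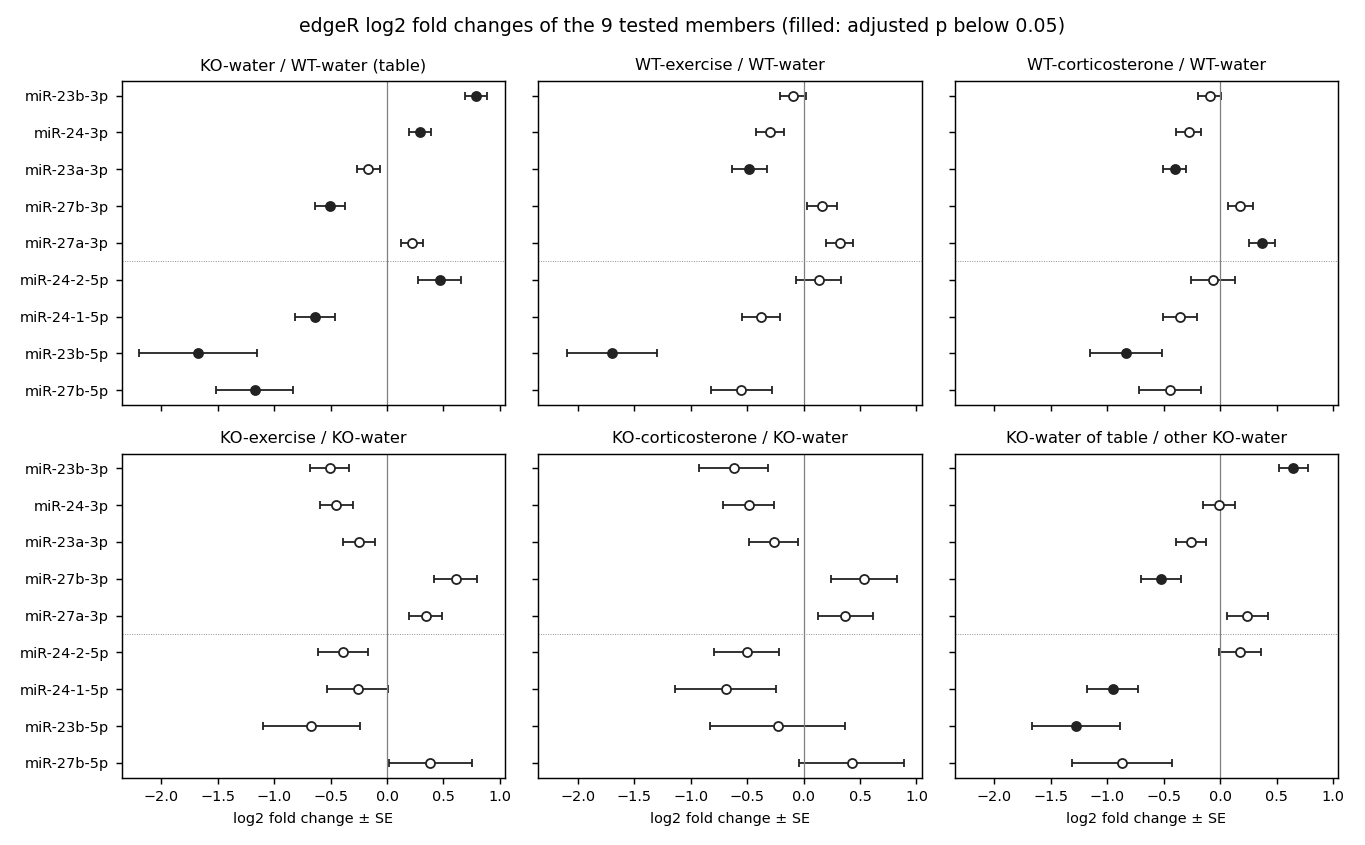
Log2 fold change ± SE from edgeR (x axes) of the 9 tested members (y axis, guide arms above the dotted line and passenger arms below) in 6 comparisons. Filled points have an adjusted p below 0.05: 7 in the table KO-water comparison, 2 with exercise and 3 with corticosterone in WT mice, 0 in both KO treatments and 4 between the KO-water subsets.

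In KO mice no member was called by edgeR with exercise (0 of 9, where 4.02% of 523 microRNAs were called, 3.06% higher and 0.956% lower) or with corticosterone (0 of 9, where 0.521% of 576 were called). At an unadjusted p below 0.05, 4 members passed with exercise and 0 with corticosterone, where 86 of 523 and 40 of 576 microRNAs did. DESeq2 called 2 members with exercise and 0 with corticosterone, with no share over all microRNAs kept for those fits. The 5 KO-exercise libraries had 6054 to 6773 CPM of miR-23b-3p, all below the 6 KO-water libraries at 6834 to 11603 CPM, with a log2 fold change of -0.51 ± 0.17 (edgeR adjusted p = 0.144). miR-24-3p was likewise lower in 5 of 5, at 5332 to 7602 CPM against 7952 to 10616 CPM (-0.45 ± 0.15, edgeR adjusted p = 0.137). On the scale of this comparison, groups that did not overlap made up 5.74% of all microRNAs tested. With scaling factors set over all 31 libraries the ranges of miR-24-3p overlapped, at 4941 to 7604 against 7495 to 11121 CPM. miR-27b-3p had 2212 to 3035 CPM against 1162 to 2471 CPM, with 0.61 ± 0.19 (edgeR adjusted p = 0.115), and was called without KO-water replicate 5 (0.74).

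The KO exercise result depended on which KO-water libraries served as the control, and with each subset 3 members were called. The share of all microRNAs called was not kept for these fits, so the counts cannot be set against a background. Against the table KO-water libraries the members called were miR-23b-3p (-0.87), miR-27b-3p (0.83) and miR-24-3p (-0.51). Against the other KO-water libraries they were miR-23b-5p (-1.24), miR-24-1-5p (-0.72) and miR-24-3p (-0.53). miR-24-3p was thus the member lower after exercise with either subset as control (edgeR adjusted p = 0.0203 and 0.0462). Within the code letters G and H, 0 members were called by edgeR, and miR-24-3p had -0.50 and -0.45. KO-exercise also had 2 of 3 immune cell microRNAs called higher, miR-146a-5p (1.38) and miR-142a-3p (0.59), and an oligodendrocyte sum of 1200 to 3584 CPM against 754 to 5296 CPM in KO-water. Their part in the result was not tested.

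KO-corticosterone was compared with the same KO-water libraries as KO-exercise. On the scale of this comparison its 2 libraries lay below all KO-water libraries for miR-23b-3p (6234 and 6024 CPM), miR-24-3p (6392 and 6281 CPM) and miR-23a-3p (3651 and 3203 CPM). They lay above them for miR-27a-3p (1265 and 1051 CPM), where 12.3% of all microRNAs tested had groups that did not overlap. For miR-23a-3p the groups overlapped when scaling factors were set over all 31 libraries (3566 and 3815 against 3419 to 4801 CPM). With 2 libraries the exact permutation test cannot go below p = 0.0714. Against the table KO-water libraries alone miR-23b-3p (-0.87) and miR-27b-3p (0.86) were called, and against the other KO-water libraries 0 were. The share of all microRNAs called was not kept for these fits either. In both KO comparisons the median over the 9 members was -0.26, against -0.01 over all microRNAs with exercise and -0.12 with corticosterone.

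Whether treatment differences differ between genotypes was tested by interaction terms. None of the 9 members was called by edgeR for exercise or for corticosterone, where 0% of 571 and 0% of 630 microRNAs were called, and DESeq2 called 0 members in each. At an unadjusted p below 0.05, 1 member passed for exercise, miR-23b-3p with -0.50 ± 0.20 (edgeR adjusted p = 0.218), and 0 for corticosterone, and 101 and 65 of all microRNAs did. With only the table KO-water libraries 5 members were called for exercise and 3 for corticosterone, and with only the others 0 in each. The share of all microRNAs called was not kept for these fits, so whether the counts are particular to the members was not tested. Between the KO-water subsets themselves 54.5% of all microRNAs tested were called. Between treated KO and WT mice 0 of 9 members were called by edgeR, with exercise (0% of 517) or with corticosterone (0% of 552), none at an unadjusted p below 0.05 and none by DESeq2.

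Ratios of arms within a library need no scaling between libraries, and they ask whether guide and passenger of 1 hairpin kept step. They were computed as log2 of the 5p over the 3p count, each plus 0.5, and tested with limma across all hairpins with a mean count of at least 10 for each arm. For miR-24-1 and miR-24-2 the 3p count is that of miR-24-3p, to which both hairpins add. The passenger arm was 0.480% ± 0.365 (SD, n = 7) of the miR-23b reads in WT-water and 0.149% ± 0.0472 (n = 5) in WT-exercise. It was 0.271% ± 0.0581 (n = 6) in WT-corticosterone, 0.0799% ± 0.0269 (n = 3) in the table KO-water libraries and 0.316% ± 0.126 (n = 3) in the other KO-water libraries.

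The miR-23b arm ratio was lower in WT-exercise than in WT-water by 1.45 ± 0.38 on the log2 scale (limma difference -1.45, adjusted p = 0.015), 1 of 4 member hairpins tested, where 34.6% of 208 hairpins were called. In WT-corticosterone the difference was -0.59 and 0 of 4 were called by limma, where 39.9% of 203 were. Leaving out WT-corticosterone replicate 2 brought the miR-27b arm ratio past the threshold (-0.83). In the exercise comparison leaving out WT-exercise replicate 1 did the same for miR-27b (-0.87), and leaving out replicate 2 for miR-24-2 (0.52). Against WT-water the table KO-water libraries were lower in the arm ratios of miR-23b (-2.35 ± 0.47, limma adjusted p = 0.001) and miR-24-1 (-0.95 ± 0.20, limma adjusted p = 0.00045), where 67.5% of 209 were called. Without KO-water replicate 4 the miR-27b arm ratio passed the threshold too (-0.89). Against the other KO-water libraries they were lower in both as well (-1.91 and -0.97, limma adjusted p = 3.05e-05 and 0.00217), where 57.4% of 195 were called. The exact permutation test gave p = 0.1 for each of these, the smallest possible with so few libraries. In KO-exercise and KO-corticosterone 0 of 4 were called by limma, where 6.22% of 193 and 0% of 197 were.

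Passenger and guide of miR-23b thus moved in opposite directions in the table KO-water libraries, the passenger lower and the guide higher, and in WT-exercise the passenger was lower while the guide was not called. For miR-24-2 the arm ratio had a mean of -7.28 ± 0.34 (SD, n = 7) in WT-water, -7.07 ± 0.22 (n = 3) in the table KO-water libraries and -7.17 ± 0.28 (n = 5) in KO-exercise.

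**Figure D4:**
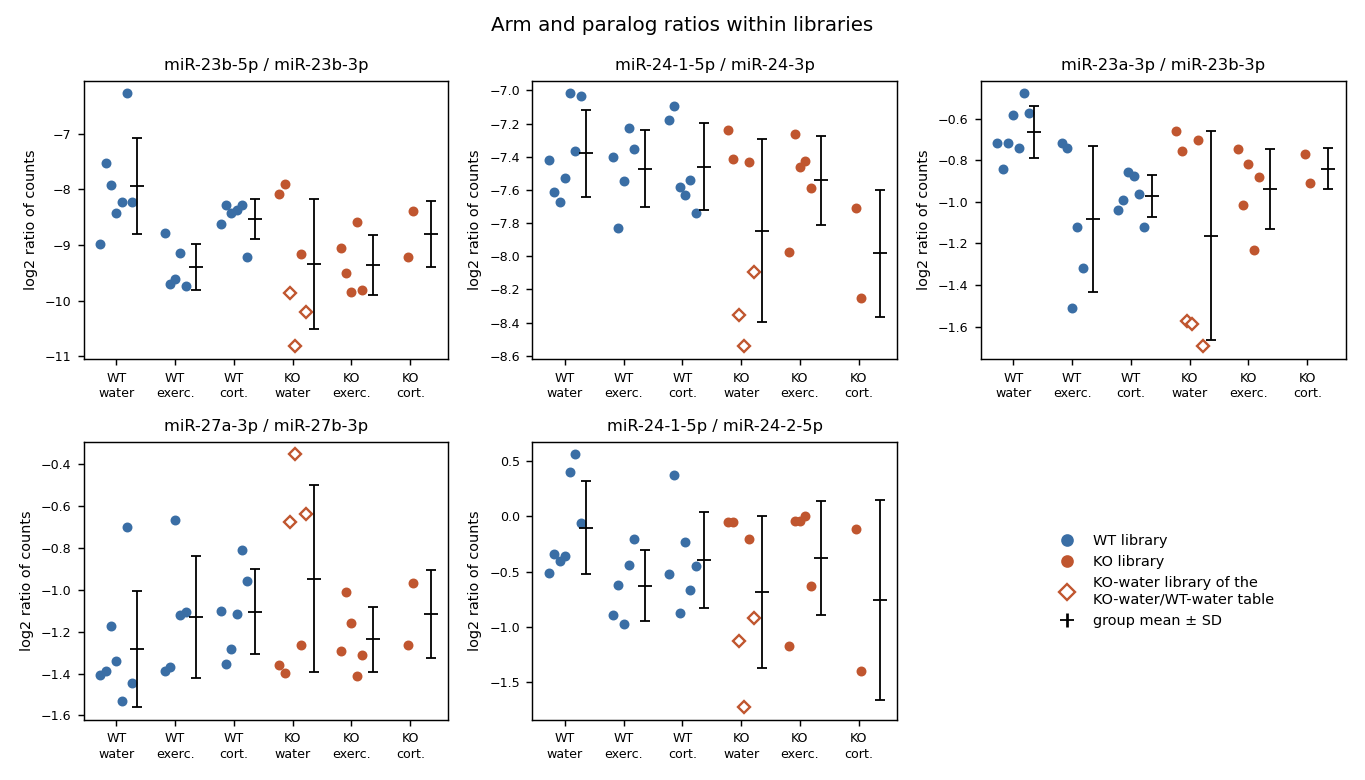
Log2 ratios of counts within each library (y axes) by group (x axes) for the passenger over guide arm of miR-23b and of miR-24-1 and for 3 paralog pairs, 1 point per library, open diamonds for the table KO-water libraries and bars for the group mean ± SD. The table KO-water libraries lie apart from all other water libraries in miR-23a-3p over miR-23b-3p, and the WT-corticosterone libraries lie narrowly below WT-water there.

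Ratios of paralogs compare both clusters within a library. They also depend on how reads that fit both paralogs were counted, which the sources used here do not give. Over WT-water libraries the log2 ratio of miR-23a-3p to miR-23b-3p ran from -0.84 to -0.48, and in the table KO-water libraries it was -1.57, -1.59 and -1.69. The difference was -0.95 ± 0.09 (limma adjusted p = 2.73e-06). For miR-27a-3p to miR-27b-3p the same libraries stood at -0.67, -0.35 and -0.64 against -1.53 to -0.70, so the ratio moved the other way by 0.73 ± 0.16 (limma adjusted p = 0.00151). The ratio of miR-24-1-5p to miR-24-2-5p, the b over the a cluster, differed by -1.15 ± 0.26 (limma adjusted p = 0.00227). All 3 member pairs tested were called, where 53.5% of 155 pairs were, and all 3 were also called between the KO-water subsets (-0.91, 0.79 and -1.15), where 54.2% of 142 pairs were. Between the subsets the exact permutation test gave p = 0.1 for each pair, the smallest possible there. So in the table KO-water libraries the b cluster was higher relative to the a cluster for miR-23 and lower for miR-27 and for the miR-24 passenger arms.

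In WT mice, only the miR-23 pair among the 3 was called with treatment. In WT-corticosterone miR-23a-3p over miR-23b-3p was -1.12 to -0.86, narrowly below the lowest WT-water library at -0.84. How many of all pairs had groups that did not overlap was not kept. The difference was -0.31 ± 0.08 (limma adjusted p = 0.00418), 1 of 3 pairs where 44.8% of 154 pairs were called. In WT-exercise the values were -0.72, -0.74, -1.51, -1.12 and -1.32, with a difference of -0.42 ± 0.14 (limma adjusted p = 0.0285), 1 of 3 pairs where 42.9% of 156 were called. WT-exercise replicates 1 and 2 lay in the WT-water range and the others below it, and the call was lost without WT-exercise replicate 3, 4 or 5 (-0.31, -0.41 and -0.36) or WT-water replicate 6 or 7 (-0.39 and -0.40). In KO mice 0 of 3 pairs were called by limma with exercise, where 5.59% of 143 were, or with corticosterone, where 1.37% of 146 were.

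Neighbours in 1 cluster did not keep a fixed ratio. The log2 ratio of miR-23b-3p to miR-27b-3p was 1.71 ± 0.099 (SD, n = 7) in WT-water, 1.84 ± 0.21 (n = 3) in the other KO-water libraries and 3.01 ± 0.22 (n = 3) in the table KO-water libraries, and its group means were 1.29 to 1.46 in the treated groups. That of miR-23a-3p to miR-27a-3p was 2.33 ± 0.18 in WT-water and 2.21 in KO-water and 1.51 to 1.61 as means of the treated groups. These ratios were chosen after their values were seen and carry no test. By group mean, miR-23 was thus lower relative to miR-27 in the treated groups than in water, in both clusters.

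The microRNAs most like each member over the 31 libraries were found by Spearman's rho of log2 CPM among 464 microRNAs with a mean of at least 10 CPM. Libraries of 1 group share their treatment and the table KO-water libraries stand apart, so these values are a description. For miR-23a-3p they were miR-490-3p (0.92), miR-339-5p (0.91) and miR-181b-5p (0.90), and with group means removed 0.78, 0.77 and 0.74. For miR-27b-3p they were miR-30b-5p (0.81), miR-379-3p (0.79) and miR-664-3p (0.78). miR-23b-5p was most like miR-431-3p (0.79), miR-7b-3p (0.78) and miR-124-5p, a passenger arm of the miR-124 hairpins (0.77). miR-24-3p had miR-652-5p (0.78), miR-181c-3p (0.77) and miR-181a-5p (0.77), and miR-27a-3p had miR-130a-3p (0.78), miR-873a-5p (0.74) and miR-26b-5p (0.73). miR-23b-3p had the lowest values, with miR-103-3p (0.70), miR-93-3p (0.67) and miR-7a-1-3p (0.66), and these were 0.36, 0.29 and -0.01 with group means removed. No cluster mate or paralog was among the 3 most like microRNAs of any of these 6 members.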

How the data were processed

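Small RNA of the right hippocampus was sequenced on an Ion Torrent instrument, per the labels' protocols. The files that the authors deposited are 5 count tables with 1966 rows, raw reads per mature microRNA, each joining a pair of groups. GRCm38 (mm10) and the tools featureCounts, Subread, BWA, cutadapt 2.3 and limma 3.54.1 are named, per the submitters' processing notes, without order or role. Strand and the treatment of reads that fit several places were looked for and not found in those notes. Counts of the 14 libraries that recur between tables were identical. Replicates all differed by more than sampling noise (chi-square per degree of freedom at least 16.1). A KO-exercise column placed beside KO-water was left out.

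Each comparison was fitted with edgeR 4.0.16 in R 4.3.3 on the libraries of its groups: filterByExpr by group, TMM scaling, estimateDisp, glmQLFit (robust) and the quasi-likelihood F test, two-sided, with Benjamini-Hochberg adjustment over all microRNAs tested. Called means an adjusted p below 0.05. SE were derived from the F statistic. CPM are counts per TMM-scaled library size. Arm and paralog ratios were tested with limma 3.58.1 (eBayes with trend and robust). Exact permutation tests used scipy 1.17.1. Both kinds of test were checked on simulated data. Alternatives were DESeq2 1.42.0, limma-voom, other scaling and filters, a replicate block, the code letter, a joint fit of all groups, other KO-water libraries and each library left out. The labels do not say whether replicate numbers pair libraries, so the main fits did not use them. Fits within a code letter, and interactions with part of KO-water, were added after seeing the data. All 10 members are named, and other microRNAs come from fixed lists, from a shared seed or from the 3 most alike. The members and lists were chosen with earlier results of these data known. P-values measure the spread between these libraries.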

Additional observations from a re-analysis of the deposited data

Results flagged for a closer look

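In WT-water, replicate 6 had the highest miR-23a-5p, 8.07 CPM against a group median of 1.74 CPM, and the highest miR-23b-5p, 80.1 CPM against a median of 26.9 CPM and 40.0 CPM in the next library. Both gaps to the nearest library were above Dixon's 95% critical value for 7 libraries. In WT-corticosterone, replicate 6 had the lowest log2 ratio of miR-23b-5p to miR-23b-3p, -9.22 against a median of -8.39. In KO-water, replicate 4, one of the table KO-water libraries, had the highest log2 ratio of miR-24-2-5p to miR-24-3p, -6.82 against a median of -7.21. These were 4 of 85 groups tested, and chance alone marks about 1 in 20.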

How the results depend on the processing

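The number of members called moved with the processing as follows. For most of these fits, and for those with a library left out, the share of all microRNAs called was not kept. For KO-water against WT-water (7 called) it was 2 with the replicate block, 1 in the joint fit of 6 groups, which uses all KO-water libraries, and 0 with all or only the other KO-water libraries. For WT-exercise (2) it was 5 with DESeq2, 1 without a filter, and 0 with the replicate block or within code letter G. For WT-corticosterone (3) it was 5 with DESeq2 or its size factors and 1 with the replicate block. For KO-exercise (0) it was 2 with DESeq2, 1 at a mean of at least 10 CPM and 3 in the joint fit or with either subset of KO-water. For KO-corticosterone (0) it was 1 with the replicate block and 2 with the table KO-water libraries, which also gave 5 and 3 for the interactions (0). A mean count of at least 50 left 1 of 2 arm ratios between the KO-water subsets, and the code letter as covariate gave 2 paralog ratios in place of 1 for WT-exercise.

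With each library left out, members called ranged from 5 to 7 (KO-water), 1 to 5 (WT-exercise), 2 to 5 (WT-corticosterone), 0 to 1 (KO-exercise) and 2 to 4 (KO-water subsets). Arm ratios called ranged from 2 to 3 (KO-water), 1 to 2 (WT-exercise) and 0 to 1 (WT-corticosterone), and paralog ratios from 0 to 1 (WT-exercise). The labels do not say whether replicate numbers pair libraries, and correlations of deviations between same-numbered libraries cannot decide it. They were above 0.1 in 1 of 3 pairs (KO-water), 2 of 5 (WT-exercise), 1 of 6 (WT-corticosterone), 3 of 5 (KO-exercise) and 1 of 2 (KO-corticosterone). The library of the same number was the best match in 1, 1, 0, 3 and 2 of them, in that order.

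Values turned sign as follows, and the cause was not tested. For KO-water against WT-water, miR-27a-3p was -0.10 without scaling factors, -0.045 in the joint fit, -0.019 with all and -0.15 with the other KO-water libraries, miR-24-3p was -0.030 without scaling factors and miR-24-1-5p 0.20 with the other KO-water libraries. For KO-exercise, miR-23b-5p was 0.070 and miR-24-1-5p 0.25 with the table KO-water libraries, and miR-27b-5p -0.013 with the others. For KO-corticosterone, miR-23b-5p was 0.27 with the code letter, 0.26 within H and 0.62 with the table KO-water libraries, and miR-27b-5p -0.030 with the block. Arm ratios turned for miR-23b in KO-exercise (0.074, pseudocount 5), miR-27b in KO-corticosterone (0.33, code letter) and miR-27b between the KO-water subsets (0.15, pseudocount 5).

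With single libraries left out, signs also turned within these ranges: miR-24-2-5p from -0.092 to 0.23 in WT-exercise and from -0.23 to 0.032 in WT-corticosterone, miR-23b-5p from -0.68 to 0.13 in KO-corticosterone, and miR-24-3p from -0.068 to 0.099 between the KO-water subsets. Arm ratios did so in KO-exercise (miR-23b, -0.32 to 0.26, and miR-24-2, -0.091 to 0.069), in KO-corticosterone (miR-27b, -0.19 to 0.059, miR-24-1, -0.41 to 0.13, and miR-24-2, -0.43 to 0.31) and between the KO-water subsets (miR-27b, -0.60 to 0.044). The ratio of miR-24-1-5p to miR-24-2-5p ran from -0.71 to 0.56 in KO-corticosterone.

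Of 1119 alternative values of member log2 fold changes, 950 kept direction and side of the threshold, 88 lost and 61 gained it and 20 turned. Of 351 for arm ratios 321 kept both, and of 270 for paralog ratios 256. Depth limits the passenger arms most, with 0 to 14 counts of miR-23a-5p per library.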
